A study of Mus musculus with 96 samples.

Results

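Cyp2b10, Cyp2b9 and Cyp2b13 are 3 genes for cytochrome P450 enzymes of the Cyp2b subfamily, taken here by name from the 18193 genes with a probe set of their own on the array. They were measured by 5 probe sets. Cyp2b10 had 1451787_at, 1425645_s_at and 1422257_s_at, Cyp2b9 had 1419590_at and Cyp2b13 had 1449479_at. Levels of Cyp2b10 are those of 1451787_at, whose mean over all arrays was the highest, 10.29 against 10.26 for 1425645_s_at and 10.02 for 1422257_s_at.

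Liver total RNA of female and male CD-1 mice, an outbred stock, was measured on 96 arrays. PB, which the labels do not expand and which in work on this pathway commonly stands for phenobarbital, was given in the diet for 7 days or 2 days. The 6 daily doses, identical in both sexes, were 0, 0.15, 1.5, 15, 75 and 150 mg/kg-day by the design text, although the titles of the samples write ppm after these numbers. Each of the 24 combinations of sex, day and dose had 4 arrays, and the labels give no genotype, age or further agent for any group. Whether the arrays of a group came from separate mice is not stated, so the p-values measure the spread between these samples, which may be technical. The series title places the study in the early events of liver tumour formation through the receptor CAR.

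CAR (constitutive androstane receptor, gene Nr1i3) is a nuclear receptor held in the cytoplasm of hepatocytes. After exposure to barbiturates it moves to the nucleus, pairs with a retinoid X receptor and binds an enhancer upstream of Cyp2b10, the standard marker gene of CAR activity in mouse liver, whose enzyme oxidises many drugs. Cyp2b9, first described as a testosterone hydroxylase, and its neighbour Cyp2b13 are known in mice as genes of the adult female liver, where the sex-specific rhythm of growth hormone release keeps them low in males. In the RefSeq annotation all 3 lie in one cluster of Cyp2 genes on chromosome 7, with only annotated pseudogenes between Cyp2b13 and Cyp2b9.

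The 250 bases before the annotated start of each gene are shown because Cyp2b9 and Cyp2b13 followed each other across the 24 groups while Cyp2b10 took another course. That likeness followed sex first, and within the 48 male arrays Pearson's r between Cyp2b9 and Cyp2b13 was 0.71. Whether these sequences bear on it was not tested. All 3 genes matched a RefSeq entry (GRCm38.p6, plus strand): chr7:25897408-25897657 for Cyp2b10, chr7:26173159-26173408 for Cyp2b9 and chr7:26061245-26061494 for Cyp2b13. The coordinates are those of the RefSeq table, since the array values name no build. Capitals in Cyp2b10 mark the motif ATAAAA, and capitals in the other sequences mark the bases at which those differ.
Cyp2b10: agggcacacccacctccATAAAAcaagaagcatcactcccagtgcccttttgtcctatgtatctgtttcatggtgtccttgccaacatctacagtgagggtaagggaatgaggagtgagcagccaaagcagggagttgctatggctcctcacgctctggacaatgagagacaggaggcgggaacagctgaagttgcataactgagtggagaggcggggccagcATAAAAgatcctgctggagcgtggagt
Cyp2b9: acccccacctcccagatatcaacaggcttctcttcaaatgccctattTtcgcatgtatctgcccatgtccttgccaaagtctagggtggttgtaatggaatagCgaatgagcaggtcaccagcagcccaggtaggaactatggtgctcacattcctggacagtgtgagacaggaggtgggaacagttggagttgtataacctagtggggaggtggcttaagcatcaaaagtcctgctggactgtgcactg
Cyp2b13: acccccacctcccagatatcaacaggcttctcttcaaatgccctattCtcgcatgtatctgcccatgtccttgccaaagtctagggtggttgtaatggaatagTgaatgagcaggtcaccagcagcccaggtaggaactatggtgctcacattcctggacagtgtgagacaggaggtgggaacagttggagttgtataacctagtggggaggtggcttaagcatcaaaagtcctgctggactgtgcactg

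Cyp2b9 and Cyp2b13 were identical at 248 of the 250 bases (99.2%). Their differences were T48C and C104T, with the base of Cyp2b9 first, the base of Cyp2b13 last and positions counted from 1 at the 5′ end. Cyp2b10 shared 182 of 240 aligned bases with either of them (75.8%), and the alignment had a further 20 gap positions. Both strands were searched for 3 motifs. ATAAAA began 233 and 27 bases before the start of Cyp2b10, had no match in Cyp2b9 or Cyp2b13, and was present in 17.0% of 32851 mouse promoters of this length. AGGTCA, a nuclear receptor half-site motif, began 138 bases before the start of Cyp2b9 and of Cyp2b13, had no match in Cyp2b10, and was present in 14.0% of the promoters. TTCNNNGAA, the motif of STAT factors, had no match in the 3 sequences and was present in 7.02% of the promoters. Transcript and probe sequences were not compared, so how far the probe sets of Cyp2b9 and Cyp2b13 tell their transcripts apart was not tested.

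All values are on the authors' log2 scale, so a difference of 1 is a doubling. Over the 96 arrays the lower quartile lay between 3.91 and 4.09, the median between 5.35 and 5.44 and the highest value between 14.86 and 14.97. Alb, which encodes the albumin that hepatocytes secrete, stood between 14.70 and 14.90 on all arrays. Xist, the RNA that silences an X chromosome in females, lay between 12.00 and 12.50 in female arrays and between 4.63 and 5.89 in male arrays. In such bulk RNA, fewer cells of a type and less RNA per cell cannot be told apart. A pair of male day 2 arrays stood apart. Replicate 1 at 15 mg/kg-day had 13.66 for Cyp2b10, against 11.07, 11.29 and 11.27 in the other 3 arrays of its group, and replicate 1 at 75 mg/kg-day had 10.98, against 13.27, 13.19 and 13.36. Cyp2c55, another P450 gene that CAR raises, lay the same way, with 13.01 in replicate 1 at 15 mg/kg-day, against 8.89 to 10.14 in the rest of that group, and 9.82 in replicate 1 at 75 mg/kg-day against 12.54 to 12.74. For both genes each of these arrays lay nearer to the other 3 arrays of the other's group than to those of its own, although replicate 1 at 15 mg/kg-day also lay above all arrays at 75 mg/kg-day in Cyp2b10, Cyp2b9 and Cyp2b13. Both were kept under their labels, and results that rest on them are also given without them. The pair was picked by its values of Cyp2b10 and Cyp2c55 after these were seen. A fit without the pair has a smaller spread for Cyp2b10 by that choice, so its adjusted p-values are no further support.

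Cyp2b10 rose at 15, 75 and 150 mg/kg-day in both sexes on both days, by 3.13 to 6.11 on the log2 scale. At 150 mg/kg-day its group means lay between 13.49 and 13.61 in all 4 combinations of sex and day, whereas at dose 0 they lay between 7.43 and 8.15. At 1.5 and 0.15 mg/kg-day it was not called in any of the 8 comparisons with dose 0. The tests were limma's moderated tests on a fit over all arrays, adjusted by Benjamini-Hochberg over the 18193 genes, with a threshold of 0.05, and "rose" and "fell" are used only of genes past it.

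**Figure D1:**
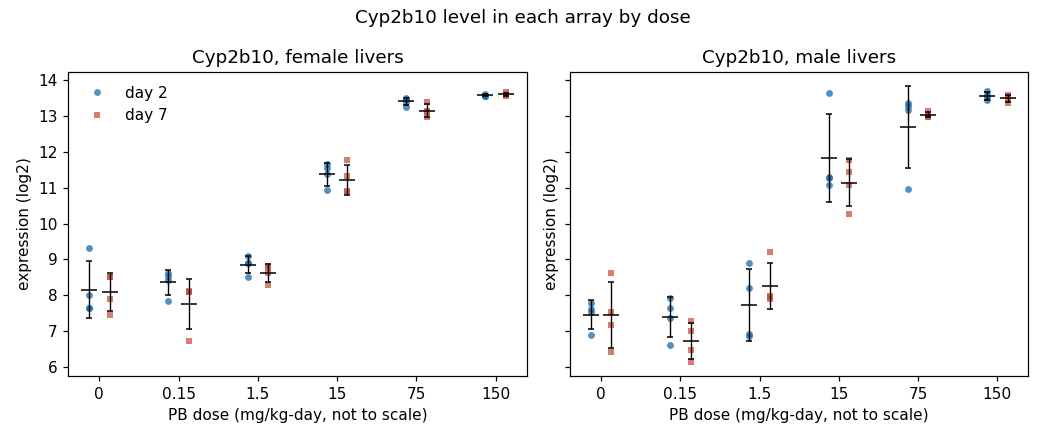
Level of Cyp2b10 (log2, vertical axis) in each array by dose in mg/kg-day (horizontal axis, spaced evenly), in female livers on the left and male livers on the right; circles are day 2, squares are day 7, and black bars are group means with SD (n = 4). All arrays at 15 mg/kg-day and above lie above all arrays at lower doses, and the pair of male day 2 arrays at 13.66 and 10.98 lie away from their groups.

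In female livers on day 2, Cyp2b10 read 9.31, 7.63, 7.64 and 8.0 at dose 0, then 8.62, 8.43, 8.54 and 7.83 at 0.15 mg/kg-day and 9.09, 8.91, 8.89 and 8.52 at 1.5 mg/kg-day. It read 11.65, 11.56, 10.93 and 11.37 at 15 mg/kg-day, 13.41, 13.27, 13.48 and 13.50 at 75 mg/kg-day, and 13.58, 13.57, 13.62 and 13.56 at 150 mg/kg-day. The arrays of the 3 lowest doses overlapped each other, and those of the 3 highest did not overlap any of them. How many of all genes separate in this way was not counted. The change from dose 0 was 3.23 ± 0.40 (SE; adjusted p = 1.79e-07) at 15 mg/kg-day, 5.27 ± 0.40 (adjusted p = 3.34e-17) at 75 mg/kg-day and 5.44 ± 0.40 (adjusted p = 6.12e-18) at 150 mg/kg-day. The last is a 43.3-fold change. In this comparison of 150 mg/kg-day with dose 0, 5.46% of all genes were called, and at 75 and 15 mg/kg-day 0.451% and 0.0220% were.

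In female livers on day 7, Cyp2b10 read 7.88, 8.52, 8.52 and 7.44 at dose 0, then 6.71, 8.08, 8.12 and 8.08 at 0.15 mg/kg-day and 8.81, 8.62, 8.76 and 8.28 at 1.5 mg/kg-day. It read 11.78, 11.33, 10.90 and 10.89 at 15 mg/kg-day, 13.11, 13.39, 13.14 and 12.99 at 75 mg/kg-day, and 13.63, 13.66, 13.58 and 13.55 at 150 mg/kg-day. Again the arrays of the 3 lowest doses lay below all others. Those at 1.5 mg/kg-day lay above those at 0.15 mg/kg-day, while the dose 0 arrays overlapped both groups. The rises were 3.13 ± 0.40 (SE; adjusted p = 5.17e-07), 5.07 ± 0.40 (adjusted p = 2.52e-16) and 5.52 ± 0.40 (adjusted p = 2.74e-18) at 15, 75 and 150 mg/kg-day, against backgrounds of 0.0220%, 0.764% and 2.45% of genes called.

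In male livers on day 2, Cyp2b10 read 7.62, 6.89, 7.79 and 7.54 at dose 0, then 7.37, 7.63, 6.62 and 7.92 at 0.15 mg/kg-day and 6.85, 8.91, 6.91 and 8.19 at 1.5 mg/kg-day. At 150 mg/kg-day it read 13.44, 13.54, 13.58 and 13.70, the tightest of the male day 2 groups. It rose by 4.36 ± 0.40 (SE; adjusted p = 7.96e-13) at 15 mg/kg-day and by 5.24 ± 0.40 (adjusted p = 8.69e-17) at 75 mg/kg-day, the groups that hold the pair of arrays described above. Without that pair the rises were 3.75 (adjusted p = 4.97e-12) and 5.81 (adjusted p = 3.36e-22). At 150 mg/kg-day the rise was 6.11 ± 0.40 (adjusted p = 1.85e-20), or 68.9-fold. All genes were called at shares of 0.0385%, 0.440% and 4.90% at 15, 75 and 150 mg/kg-day.

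In male livers on day 7, Cyp2b10 read 8.62, 7.54, 6.41 and 7.17 at dose 0, then 6.48, 7.27, 6.13 and 7.01 at 0.15 mg/kg-day and 7.89, 7.96, 7.98 and 9.21 at 1.5 mg/kg-day. It read 11.44, 10.26, 11.07 and 11.78 at 15 mg/kg-day, 12.98, 12.99, 13.06 and 13.13 at 75 mg/kg-day, and 13.60, 13.56, 13.46 and 13.36 at 150 mg/kg-day. The lowest array at 15 mg/kg-day lay above the highest of the lower doses. The rises were 3.70 ± 0.40 (SE; adjusted p = 1.01e-09), 5.60 ± 0.40 (adjusted p = 2.31e-18) and 6.06 ± 0.40 (adjusted p = 9.55e-21), where 0.0110%, 0.247% and 3.04% of genes were called. Fitted only on the groups compared, the calls at 15 mg/kg-day ended in males, with adjusted p = 0.105 on day 2 and 0.101 on day 7.

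At 15 mg/kg-day few genes were called at all, and Cyp2b10 had the smallest adjusted p in each sex and day. In females Cyp2c55 and Cyp2c29, further P450 genes that CAR raises, were called with it on both days, together with Ribc2, which was lower, on day 2 and Anxa7, an annexin, on day 7. In males Cyp2c55 was the only other gene called on day 7, and on day 2 the calls were 7 in all, with Cyp2c55, Cyp2c50, Cyp2c54, Cyp2c37, Slc22a26 and Sult1d1 beside Cyp2b10. Ribc2, Anxa7 and Sult1d1 were named after their values were seen. Without the pair of arrays that stood apart, 5 genes were called in males on day 2 and 7 on day 7. Fitted only on the groups compared, 2 and 1 were called in females and 0 and 0 in males on days 2 and 7. Cyp2b10 was not called in the 8 comparisons of 1.5 or 0.15 mg/kg-day with dose 0, of which 1, male day 7 at 1.5 mg/kg-day, had an unadjusted p under 0.05 (0.82 ± 0.40 SE, adjusted p = 0.999 by limma). Of all genes, 0.00550% were called in males at 0.15 mg/kg-day on day 7 and 0% in the other 7 of these comparisons. At 0.15 mg/kg-day the differences of Cyp2b10 from dose 0 ran from -0.71 to 0.21.

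The doses are unevenly spaced, so the sizes of the steps between them are not slopes. From 0.15 to 1.5 mg/kg-day the differences of Cyp2b10 were 0.50 and 0.87 in females and 0.33 and 1.54 in males on days 2 and 7. Limma called none of them. On day 7 the arrays at 1.5 mg/kg-day nevertheless lay above those at 0.15 mg/kg-day in both sexes. The share of all genes that separate in this way is not given here. Between neighbouring doses, the level of Cyp2b10 climbed most between 1.5 and 15 mg/kg-day. That step passed the test in both sexes on both days, at 2.53 and 2.61 in females on days 2 and 7 and at 4.11 and 2.88 in males, where 0.0110% and 0.00550% of genes in females and 0.0275% and 0.00550% in males were called higher. The male day 2 step was 3.49 (adjusted p = 1.09e-10) without the pair of arrays that stood apart, and its call ended when only the groups compared were fitted (adjusted p = 0.728). From 15 to 75 mg/kg-day it rose by 2.03 (adjusted p = 0.00809) and 1.93 (adjusted p = 0.0144) in females on days 2 and 7 and by 1.90 (adjusted p = 0.0177) in males on day 7, with 0.0989%, 0.0495% and 0.0715% of genes called higher. These 3 calls ended when all probe sets of a gene were averaged (adjusted p between 0.0607 and 0.186), and each ended without one or more single arrays. In males on day 2 the step was 0.88 (adjusted p = 0.627), with 0% of genes called higher. Without the pair of arrays that stood apart it was 2.06 (adjusted p = 0.00113). The pair was picked by these same values, so the latter p is no test of the step. From 75 to 150 mg/kg-day the differences were 0.17 and 0.45 in females and 0.87 and 0.46 in males on days 2 and 7, and limma called none of them, while 1.20% and 0.0550% of genes in females and 0.0989% and 0.104% in males were called higher. Without the pair the male day 2 difference was 0.29. The 4 arrays at 150 mg/kg-day nevertheless lay above the 4 at 75 mg/kg-day in both sexes on both days, as they did for 2.01% and 1.50% of all genes in females and 1.82% and 1.69% in males on days 2 and 7.

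The spread of Cyp2b10 between arrays differed with dose. In females the SD lay between 0.239 and 0.796 over the groups at 0 to 1.5 mg/kg-day, was 0.324 and 0.423 at 15 mg/kg-day and lay between 0.0265 and 0.170 at 75 and 150 mg/kg-day. In males it lay between 0.393 and 1.01 at 0 to 1.5 mg/kg-day, was 1.23 and 0.652 at 15 mg/kg-day on days 2 and 7, and lay between 0.0727 and 1.15 at 75 and 150 mg/kg-day. The 1.23 and the 1.15 come from the groups with the 13.66 and the 10.98 array. At 75 and 150 mg/kg-day Cyp2b10 came within 1.28 of the highest value on the array in females and within 1.25 in males. Among the probe sets of an array it ranked 117th to 308th at those doses in females, against 4485th to 10905th at dose 0. Whether the signal of the probe set flattens at such levels was not tested.

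The other probe sets of Cyp2b10 followed the first. At 150 mg/kg-day on day 2 the female rise was 5.46 ± 0.46 (SE) by 1422257_s_at, 5.20 ± 0.45 by 1425645_s_at and 5.44 ± 0.40 by 1451787_at. In males on day 7 these were 6.26, 6.21 and 6.06. Over the 20 comparisons with dose 0, the probe sets of Cyp2b10 were called in the same comparisons, 36 of 60 calls, and the largest gap between their changes was 0.52. The 36 calls come from the 12 comparisons at 15, 75 and 150 mg/kg-day.

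**Figure D2:**
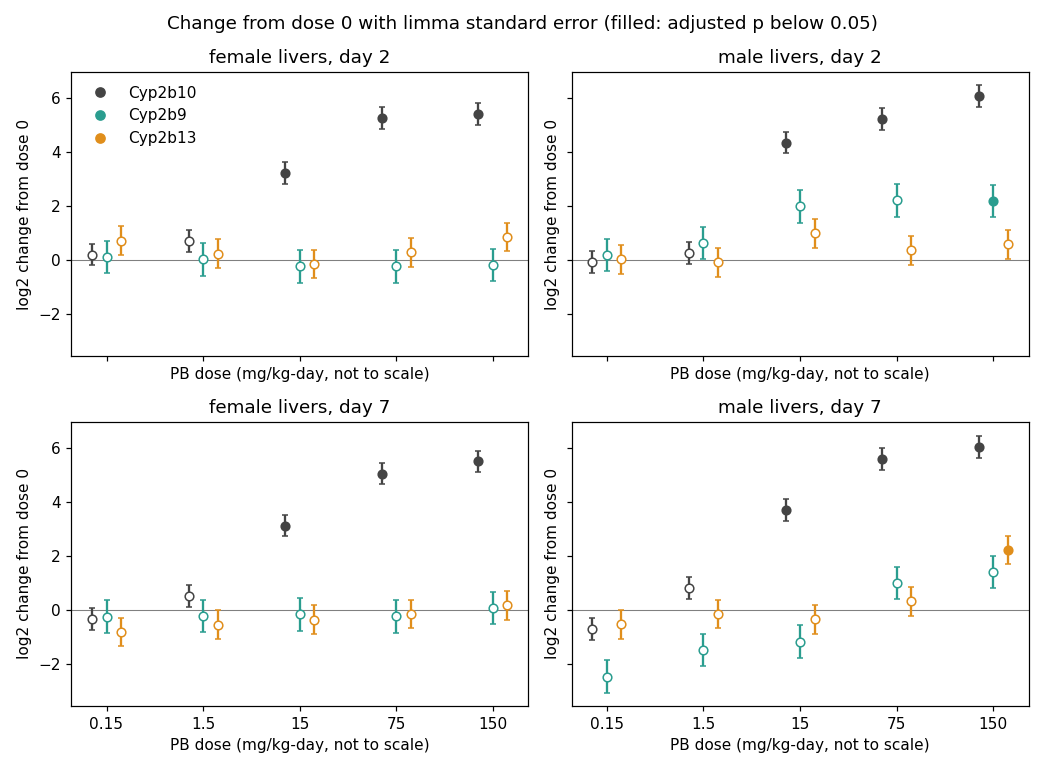
Log2 change from dose 0 (vertical axis) with limma's standard error for Cyp2b10, Cyp2b9 and Cyp2b13 by dose in mg/kg-day (horizontal axis, spaced evenly), with female livers on the left, male livers on the right, day 2 above and day 7 below; filled points passed an adjusted p of 0.05. Cyp2b10 is filled at 15, 75 and 150 mg/kg-day in every panel, Cyp2b9 at 150 mg/kg-day in males on day 2 and Cyp2b13 at 150 mg/kg-day in males on day 7.

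Cyp2b10 did not differ past the threshold of limma between the sexes at any dose on either day, and 3 of the 12 comparisons had an unadjusted p under 0.05. At dose 0 it was 0.69 ± 0.40 (SE; adjusted p = 0.542) higher in females than in males on day 2 and 0.66 ± 0.40 (adjusted p = 0.393) higher on day 7. At 1.5 mg/kg-day on day 2 the difference was 1.13 ± 0.40 (adjusted p = 0.143), and it passed the threshold without the pair of arrays that stood apart (adjusted p = 0.0489). Neither array of the pair is in these groups, so the difference stayed the same and only the shared spread changed. The response at 150 mg/kg-day in females minus that in males was -0.67 on day 2 (95% interval -1.81 to 0.47) and -0.54 on day 7 (-1.68 to 0.59). The response on day 7 minus that on day 2 was 0.08 in females (-1.05 to 1.22) and -0.05 in males (-1.18 to 1.09). Of the 10 such differences between sexes and the 10 between days, over the 5 doses, limma called 0 for Cyp2b10, and 0 of each had an unadjusted p under 0.05. For the differences at 150 mg/kg-day, 0.00550% and 0.0879% of all genes were called between sexes on days 2 and 7, and 0.874% and 0.132% between days in females and males. At the lower doses the shares were 0%, 0.00550% or 0.0110%.

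Cyp2b9 and Cyp2b13 were far higher in females than in males without PB. Cyp2b9 read 11.85, 11.46, 10.91 and 11.47 in females at dose 0 on day 2, against 4.98, 5.87, 5.51 and 5.25 in males. The difference was 6.02 ± 0.60 (SE; adjusted p = 3.89e-12), or 64.9-fold, and on day 7 it was 5.13 ± 0.60 (adjusted p = 8.53e-10). Cyp2b13 read 11.71, 10.59, 9.48 and 10.65 in females at dose 0 on day 2, against 5.67, 5.63, 5.31 and 5.44 in males. It differed by 5.10 ± 0.54 (SE; adjusted p = 1.86e-11) on day 2 and 5.86 ± 0.54 (adjusted p = 6.05e-14) on day 7. Called higher in females at dose 0 were 1.09% of all genes on day 2 and 4.63% on day 7. The difference between the sexes passed the threshold for both genes at all 6 doses on both days, from 3.80 to 5.86 for Cyp2b13. For Cyp2b9 it lay between 3.57 and 6.39, apart from 0.15 mg/kg-day on day 7, where the male mean of 4.00 lay among the lower quartiles of the arrays and no size is given. Of all genes, 2.55%, 1.20%, 0.478%, 0.627% and 0.934% were called higher in females at 0.15, 1.5, 15, 75 and 150 mg/kg-day on day 2, and 2.40%, 4.38%, 3.58%, 2.94% and 4.36% on day 7. Fitted only on the groups compared, it ended for both at 15 mg/kg-day on day 2 (adjusted p = 0.188 and 0.128), where the male group holds an array that stood apart, and without the pair it was 4.90 for Cyp2b9 and 4.89 for Cyp2b13.

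**Figure D3:**
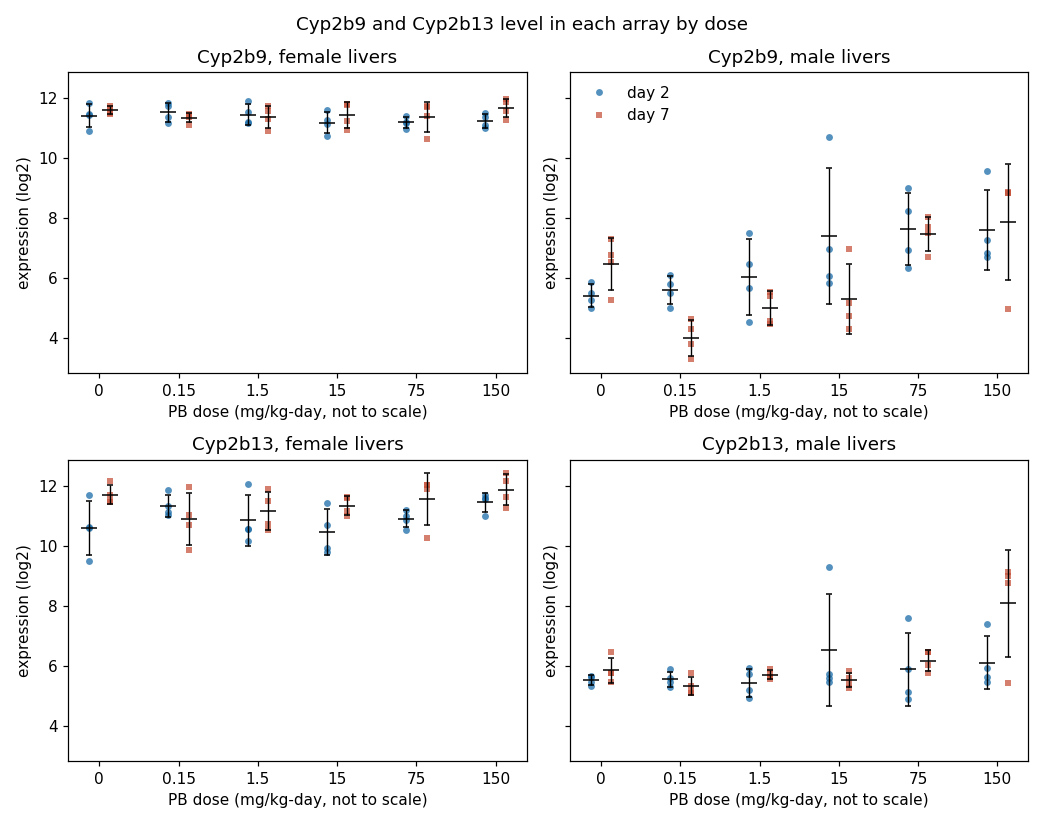
Levels of Cyp2b9 (upper panels) and Cyp2b13 (lower panels) in each array (log2, vertical axis) by dose in mg/kg-day (horizontal axis, spaced evenly), in female livers on the left and male livers on the right; circles are day 2, squares are day 7, and black bars are group means with SD (n = 4). Female arrays stay between 10.63 and 11.98 for Cyp2b9 and between 9.48 and 12.42 for Cyp2b13, whereas male arrays scatter upward at 75 and 150 mg/kg-day.

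In female livers neither gene was called by limma at any dose, and 0 of the 20 comparisons had an unadjusted p under 0.05. Cyp2b9 read 11.38, 11.10, 11.51 and 10.9995 at 150 mg/kg-day on day 2, against 11.85, 11.46, 10.91 and 11.47 at dose 0. On day 7 it read 11.87, 11.98, 11.29 and 11.57 at 150 mg/kg-day, against 11.73, 11.68, 11.51 and 11.48 at dose 0. The groups overlapped, and the changes were -0.18 ± 0.60 (SE; adjusted p = 0.932) and 0.08 ± 0.60 (adjusted p = 0.979). At 0.15 mg/kg-day on day 7 the arrays of Cyp2b9, between 11.12 and 11.47, lay below all arrays at dose 0. The difference was -0.24, and limma did not call it. The share of all genes that separate in this way is not given here. Cyp2b13 read 11.61, 11.70, 11.55 and 10.9992 at 150 mg/kg-day on day 2, against 11.71, 10.59, 9.48 and 10.65 at dose 0. Its change was 0.86 ± 0.54 (SE; adjusted p = 0.464), and on day 7 it was 0.17 ± 0.54 (adjusted p = 0.939). Over all doses and both days the female group means lay between 11.19 and 11.68 for Cyp2b9 and between 10.47 and 11.88 for Cyp2b13.

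In male livers Cyp2b9 rose at 150 mg/kg-day on day 2. It read 6.69, 7.28, 9.56 and 6.83 there, against 4.98, 5.87, 5.51 and 5.25 at dose 0. All 4 treated arrays lay above the controls, as was so for 4.26% of all genes, and replicate 3 lay above the other 3 by more than 2. The rise was 2.19 ± 0.60 (SE; adjusted p = 0.0176), or 4.56-fold, where 2.50% of genes were called higher. It ended in a fit on the groups compared alone (adjusted p = 0.0606), without replicate 3 at 150 mg/kg-day (1.53, adjusted p = 0.171) and without replicate 1 at dose 0 (2.05, adjusted p = 0.0682).

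At 75 mg/kg-day in males on day 2, Cyp2b9 read 6.33, 8.24, 8.99 and 6.95, all above the 4 controls, as was so for 2.92% of all genes. The change was 2.22 ± 0.60 (SE; adjusted p = 0.0728). The lowest of these arrays, replicate 1, is the one that stood apart. Without the pair, which was picked after the values were seen, the change was 2.66 (adjusted p = 0.00303). At 15 mg/kg-day Cyp2b9 read 10.71, 6.06, 6.98 and 5.84, of which the first is the other array that stood apart. The change there was 2.00 ± 0.60 (adjusted p = 0.522) with that array and 0.89 (adjusted p = 0.863) without the pair. At 1.5 mg/kg-day it read 4.52, 6.46, 5.66 and 7.51, and at 0.15 mg/kg-day 5.0, 6.08, 5.49 and 5.79, and both groups overlapped the controls.

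On day 7 the male controls of Cyp2b9 were wider and higher, at 5.27, 7.29, 6.54 and 6.78. Under 150 mg/kg-day it read 8.85, 8.85, 8.84 and 4.95. Of the treated arrays 3 lay together above all controls and replicate 4 lay below them. The change was 1.41 ± 0.60 (SE; adjusted p = 0.222), and without replicate 4 it was 2.38 (adjusted p = 0.00875). Replicate 4 was singled out by its low value, so the latter p is no test of a rise. At 75 mg/kg-day Cyp2b9 read 6.69, 7.51, 7.69 and 8.04, which overlapped the controls (1.01 ± 0.60, adjusted p = 0.659). All but 1 of the arrays at the lower doses lay below 3 of the 4 controls, with 3.28, 4.62, 4.31 and 3.78 at 0.15 mg/kg-day, 5.54, 4.46, 5.41 and 4.57 at 1.5 mg/kg-day and 6.97, 4.29, 4.74 and 5.17 at 15 mg/kg-day. At 0.15 mg/kg-day the arrays did not overlap the controls, which was so in this direction for 1.03% of genes. The fitted difference of -2.47 ± 0.60 (SE; adjusted p = 0.376) is not a measured size, since the mean of 4.00 lies among the lower quartiles of the arrays, and limma did not call it.

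Cyp2b13 rose in males at 150 mg/kg-day on day 7. It read 9.14, 8.77, 8.98 and 5.42 there, against 5.76, 5.75, 5.44 and 6.44 at dose 0. As with Cyp2b9, 3 arrays lay together above all controls and replicate 4 lay below them. The rise was 2.23 ± 0.54 (SE; adjusted p = 0.00622), or 4.69-fold, where 2.20% of genes were called higher. It ended in a fit on the groups compared alone (adjusted p = 0.202), without replicate 1 (adjusted p = 0.0716) and without replicate 2 at 150 mg/kg-day (adjusted p = 0.0508). At 75 mg/kg-day on day 7 it read 6.01, 6.44, 6.47 and 5.75, which overlapped the controls (0.32 ± 0.54, adjusted p = 0.919). Over all arrays the lowest female value of Cyp2b13 was 9.48 and the highest male value, on the array at 15 mg/kg-day that stood apart, was 9.31.

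In males on day 2, limma did not call Cyp2b13 at any of the 5 doses, and 0 of these comparisons had an unadjusted p under 0.05. It read 5.63, 5.92, 7.40 and 5.44 at 150 mg/kg-day and 5.13, 5.88, 7.60 and 4.89 at 75 mg/kg-day, against 5.67, 5.63, 5.31 and 5.44 at dose 0. In each of these groups replicate 3 was high. Of the others at 150 mg/kg-day, 5.63 and 5.44 lay within the range of the controls and 5.92 above it. At 75 mg/kg-day 5.88 lay above that range and 5.13 and 4.89 below it. The change at 150 mg/kg-day was 0.59 ± 0.54 (SE; adjusted p = 0.672). At 15 mg/kg-day it read 9.31 on the array that stood apart and 5.58, 5.44 and 5.73 on the others. Below 15 mg/kg-day the male values lay between 4.91 and 6.44 over both days.

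The values of the 3 genes on the same male arrays can be set side by side. Of the 48 male arrays, 8 exceeded the highest male dose 0 array for Cyp2b13 (6.4425), namely 4 at 150, 3 at 75 and 1 at 15 mg/kg-day, the last being the array that stood apart. Replicates 2 and 3 at 75 mg/kg-day on day 7 did so only barely, at 6.4446 and 6.4692. Over all 8 arrays Cyp2b9 lay between 7.51 and 10.71 and Cyp2b10 between 12.99 and 13.66. High Cyp2b10 also occurred with low values of the other genes, as in replicate 4 at 150 mg/kg-day on day 7, which had 13.36 for Cyp2b10 with 4.95 for Cyp2b9 and 5.42 for Cyp2b13. Over the array values, Pearson's r between Cyp2b9 and Cyp2b13 was 0.71 in the 48 male arrays and 0.73 in the 48 female arrays, and over the 24 group means it was 0.97. Cyp2b10 had r of 0.68 with Cyp2b9 and 0.48 with Cyp2b13 in male arrays, and -0.07 and 0.26 in female arrays. Without the pair of arrays that stood apart, r in males was 0.65 between Cyp2b9 and Cyp2b13, and 0.67 and 0.47 between Cyp2b10 and these genes. These values describe arrays that share doses and normalization.

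**Figure D4:**
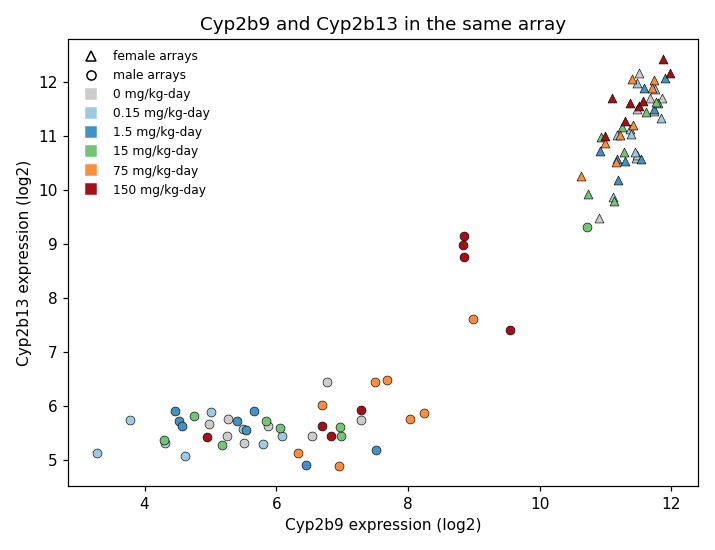
Level of Cyp2b13 (log2, vertical axis) against that of Cyp2b9 (log2, horizontal axis) in each of the 96 arrays; triangles are female arrays, circles are male arrays and colours give the dose in mg/kg-day. Female arrays form 1 cloud at the upper right, most male arrays lie between 4.89 and 6.47 for Cyp2b13, and a few male arrays at 75 and 150 mg/kg-day and 1 labelled 15 mg/kg-day lie between them.

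The differences of response between sexes and between days did not pass the threshold for Cyp2b9 or Cyp2b13. For Cyp2b9 at 150 mg/kg-day the female response minus the male response was -2.37 on day 2 (95% interval -4.07 to -0.67, adjusted p close to 1) and -1.33 on day 7 (-3.03 to 0.37). For Cyp2b13 it was 0.27 on day 2 (-1.24 to 1.78) and -2.06 on day 7 (-3.56 to -0.55, adjusted p = 0.982). Of 10 differences between sexes limma called 0 for either gene, whereas the unadjusted p was under 0.05 in 4 for Cyp2b9 and 1 for Cyp2b13. Between days it called 0 of 10 for either gene, with an unadjusted p under 0.05 in 3 and 2. The smallest unadjusted p of these differences belonged to the male response of Cyp2b9 at 15 mg/kg-day, day 7 minus day 2, at -3.17 ± 0.85 (SE; adjusted p = 0.861), in which the 10.71 array takes part. Without the pair it was -2.06 (adjusted p = 0.952). Between neighbouring doses limma called 0 of 16 steps for either gene, with an unadjusted p under 0.05 in 2 of 16 for each.

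The genes whose 24 group means were most like those of each member were taken by Pearson's r. For Cyp2b10 they were Cyp2c55 (0.95), Cyp2c54 (0.95), Cnmd (0.94), Nsl1 (0.94) and Cyp2c50 (0.93). For Cyp2b9 they were Sult3a1 (0.97), Slc22a26 (0.97), Slc22a27 (0.97), Cyp2b13 (0.97) and 9030619P08Rik (0.97). For Cyp2b13 they were Sult2a2 (0.99), Sult3a1 (0.98), Slc22a27 (0.98), Lratd2 (0.98) and Xist (0.97). Sult3a1 and Sult2a2 encode sulfotransferases, and the Slc22a genes encode organic anion transporters. With the difference between the sexes so large, these orders for Cyp2b9 and Cyp2b13 follow sex first.

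Within the 48 male arrays, a choice made after the values were seen, the genes most like Cyp2b13 were Sult2a2 (r = 0.87) and Sult3a1 (0.80), and those most like Cyp2b9 were Prom1 (0.80), which encodes a membrane glycoprotein, and Slc22a26 (0.79). Cyp2b10 stood nearest to Cyp2c55 (0.96) and Cyp2c54 (0.95). Without the pair of arrays that stood apart these r were 0.84, 0.78, 0.80, 0.76, 0.96 and 0.95 in the order given. At 150 mg/kg-day on day 7, Sult3a1 read 7.99, 7.12, 7.32 and 4.54 in males, against 3.13, 3.64, 3.10 and 2.91 at dose 0. Prom1 read 9.49, 9.99, 8.61 and 6.60 there, against 5.44, 4.94, 5.34 and 5.43 at dose 0. In both genes the lowest treated array was replicate 4, the array that was low in Cyp2b9 and Cyp2b13, though here it still lay above the controls. On day 2 at 150 mg/kg-day, replicate 3 had 8.82 for Sult3a1, against 3.28 to 3.79 in the other 3 arrays, and it was also the highest array for Cyp2b9 and Cyp2b13.

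Genes around the members gave a background to these values. Of 27 listed enzymes and transporters that CAR raises, other than the members, 23 were measured. Under 150 mg/kg-day 16 and 17 rose in females on days 2 and 7 and 17 rose in males on each day. Of all genes, 5.46% and 2.45% were called in either direction in females at this dose and 4.90% and 3.04% in males. The same shares apply to the counts at 150 mg/kg-day in the lists below. All lists were chosen with earlier results of these data known, so the counts are no independent support. The median change over the measured list was 1.16 and 1.19 in females and 0.99 and 1.22 in males, while the median over all genes was within 0.03 of 0. In females on day 2 the largest were Cyp2c55 at 6.65, Gstm3, a glutathione transferase, at 2.73, Alas1, which starts heme synthesis, at 2.08 and Abcc4, an exporter, at 1.97. Cyp2c55 rose by 6.03 in males on day 2 and by 5.85 on day 7.

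Of 12 listed genes of CAR regulation, 10 were measured. Gadd45b, which encodes a stress-response protein that binds CAR, rose at 150 mg/kg-day in both sexes on both days, by 1.78 and 0.90 in females and 2.24 and 1.29 in males on days 2 and 7. Nr1i3, the gene of CAR itself, fell by 0.86 (adjusted p = 0.00474) in males on day 7, reading 8.46, 8.40, 9.09 and 9.22 at 150 mg/kg-day, against 9.94, 9.59, 9.49 and 9.60 at dose 0. Of the other 10 listed genes of the Cyp2 cluster 5 were measured, and Cyp2g1 was the only one called at 150 mg/kg-day, with 2.14 (adjusted p = 0.0457) in males on day 2. Cyp2b19, the remaining Cyp2b gene with a probe set of its own, stayed between 2.90 and 3.63 on all arrays, below their lower quartiles.

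Of 18 listed female-biased liver genes other than Cyp2b9 and Cyp2b13, 13 were measured, and 10 and 11 were higher in females at dose 0 on days 2 and 7. Of all genes, 1.09% and 4.63% were. In males at 150 mg/kg-day 1 rose on day 2, Prom1 by 2.33, and 3 rose on day 7, Prom1 by 3.38, Hao2, a peroxisomal oxidase, by 2.25 and Sult3a1, whose dose 0 level lay below the lower quartile. Of all genes, 2.50% and 2.20% were called higher there on days 2 and 7. The rise of Prom1 was not particular to males. In females at 150 mg/kg-day it rose by 1.60 on day 2 and by 1.74 on day 7. The median change of the list in males was 0.19 on day 2 and 0.07 on day 7. Of 14 listed male-biased genes 12 were measured. In males at 150 mg/kg-day Cyp2u1 fell by 1.01 on day 2 and Moxd1 rose by 2.83 on day 7, with medians of -0.27 and -0.25. Not all of this list was higher in males here. At dose 0 limma did not call Moxd1 between the sexes on either day, and Sult5a1 was 1.10 higher in females on day 7 (adjusted p = 0.0487).

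Markers of other cells differed in some of the comparisons in which members rose. Of all genes, 4.90% and 3.04% were called in males and 5.46% and 2.45% in females at 150 mg/kg-day on days 2 and 7. In males at 150 mg/kg-day on day 7, where Cyp2b13 rose, 2 of 6 Kupffer cell markers rose, Adgre1 by 0.77 and Cd5l by 1.10, and the mean of the 6 lay between 9.72 and 10.34 per array, against 8.88 to 9.55 at dose 0. Of 6 stellate cell markers 3 fell, and their mean lay between 7.97 and 8.30, against 8.28 to 8.67 at dose 0. Of 3 measured neutrophil markers S100a8 rose, and of the 6 sinusoidal endothelial markers Stab2 fell. The mean of the 5 measured hepatocyte markers lay between 14.12 and 14.20 per array at 150 mg/kg-day, against 14.20 to 14.24 at dose 0. In males on day 2, where Cyp2b9 rose, Clec4g of the endothelial markers fell by 0.36, and the mean of the 6 lay between 8.49 and 8.60 per array, against 8.54 to 8.85 at dose 0. There the mean of the stellate cell markers lay between 8.31 and 8.36, against 8.40 to 8.66 at dose 0. That of the hepatocyte markers lay between 14.14 and 14.18, against 14.21 to 14.24. The mean of the Kupffer cell markers was not higher there, at 9.10 to 9.58 against 9.36 to 10.59 at dose 0. In females on day 2 S100a8 rose by 2.83, Stab2 fell by 0.53, Clec4g fell by 0.29 and Cela1, a pancreatic elastase, fell by 0.81. In females on day 7 Cela1 fell by 0.80 and Apoa1, a hepatocyte marker, fell by 0.15. The female mean of the stellate cell markers at 150 mg/kg-day lay between 8.42 and 8.47 on day 2, against 8.62 to 8.74 at dose 0. On day 7 it lay between 8.51 and 8.62, against 8.66 to 8.79. The lower stellate mean was thus not particular to the males on day 7. The female mean of the Kupffer cell markers at 150 mg/kg-day lay between 9.82 and 10.39 on day 7, against 9.61 to 9.91 at dose 0. On day 2 it lay between 9.59 and 10.27, against 9.76 to 10.30. The part of these shifts in the values of the members was not tested.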

How the data were processed

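Liver RNA was hybridised to Affymetrix mouse expression arrays, 1 per sample. The deposited table holds values on the log2 scale, normalized by the authors; the method, software and genome build are not given in the sources used here. Probe sets were named from the platform annotation. Of 45101 probe sets, 34945 had 1 gene symbol, 932 had several, 9160 had none and 64 were controls; the probe set with the highest overall mean stood for each gene, giving 18193 genes. Samples were grouped by their titles into 24 groups of 4 arrays. A mean per group was fitted with limma 3.58.1 in R 4.3.3 (72 residual and 4.39 prior degrees of freedom), and 70 comparisons were tested two-sided, each with Benjamini-Hochberg adjustment over all genes at 0.05. All 5 probe sets of the members were also fitted among the 34945. With no counts, precision is set by how many arrays a group has.

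The members, the gene lists and the tests were chosen with earlier results of these data known. The genes named are the members, for each the 5 genes most like it, up to 4 called genes of a list, and 3 genes called at 15 mg/kg-day that were added after their values were seen. The alternatives were quantile normalization, leaving out dim genes, averaging all probe sets of a gene, fitting only the groups compared, the replicate number as a block, a mean-variance trend, and leaving out each array. Leaving out both male day 2 arrays that stood apart was added after seeing the data. The procedure was tested on simulated data. Promoters came from RefSeq (GRCm38.p6) and were aligned with Biopython 1.88; figures were drawn with matplotlib 3.10.9.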

Additional observations from a re-analysis of the deposited data

Results flagged for a closer look

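Each member was examined in 24 groups of 4 arrays, and in 8 of the 72 a single array lay far from the other 3 by Dixon's test of the gap over the range; chance alone would mark about 1 in 20. For Cyp2b10 these were the lowest female array at 0.15 mg/kg-day on day 7 (6.71), the highest male array at 15 mg/kg-day on day 2 (13.66), the lowest male array at 75 mg/kg-day on day 2 (10.98) and the highest male array at 1.5 mg/kg-day on day 7 (9.21). For Cyp2b13 they were the lowest female array at 75 mg/kg-day on day 7 (10.26), the highest male array at 15 mg/kg-day on day 2 (9.31) and the lowest male array at 150 mg/kg-day on day 7 (5.42). For Cyp2b9 it was the lowest male array at 150 mg/kg-day on day 7 (4.95), the same array as for Cyp2b13. The male array with 13.66 for Cyp2b10 is the one with 9.31 for Cyp2b13.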

How the results depend on the processing

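Of the 210 member comparisons, all kept their side of the threshold under quantile normalization, without dim genes, with a mean-variance trend and with the replicate number as a block. All kept their direction too, except 4 uncalled differences of at most 0.0355 in size that changed sign under quantile normalization. The numbers did not pair the samples: the deviations of same-numbered arrays correlated between -0.161 and 0.312 (median 0.012). With this replicate block 998 and 443 genes were called at 150 mg/kg-day in females on days 2 and 7 and 872 and 559 in males, against 994, 445, 892 and 553 without it. Fitted only on the groups compared, where fewer arrays estimate the spread, 7 of the 210 lost their call, among them Cyp2b9 in males at 150 mg/kg-day on day 2 (2.19, adjusted p = 0.0606) and Cyp2b13 on day 7 (2.23, adjusted p = 0.202), and 341, 257, 526 and 146 genes were called. The fit over all arrays gives each gene 1 spread for all groups, but the SD differed between groups. It was 1.34 for Cyp2b9 and 1.78 for Cyp2b13 in these male groups at 150 mg/kg-day. In female groups it lay between 0.126 and 0.512 for Cyp2b9 and between 0.291 and 0.909 for Cyp2b13. The part of this in the lost calls was not tested. Averaging probe sets ended 3 calls, all of Cyp2b10 between 15 and 75 mg/kg-day. Without the 2 male day 2 arrays that stood apart 3 comparisons gained a call, in a fit that left out arrays picked by their values. Leaving out single arrays ended 14 and added 4 of 2160 results. The change at 150 mg/kg-day then ranged from 1.53 to 2.49 for Cyp2b9 in males on day 2, from 1.01 to 2.38 on day 7, and from 1.87 to 3.12 for Cyp2b13 in males on day 7, and the called genes ranged from 601 to 1049 and 244 to 402 in females and from 551 to 833 and 310 to 617 in males on days 2 and 7. No called value changed sign under these alternatives. Uncalled differences changed sign in 3 comparisons when probe sets were averaged, in 138 of the 2160 results that leave out an array, and in 5 comparisons without the doubtful pair, among them Cyp2b13 in males on day 2 between 75 and 15 mg/kg-day (0.54, against -0.64 with the pair) and Cyp2b10 between the sexes at 15 mg/kg-day on day 2 (0.17, against -0.44 with the pair).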
